A study of Rattus norvegicus with 6 samples.

Results

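The 43 genes described here encode the DNA replication machinery and the enzymes that supply its deoxynucleotides, together with a few regulators of entry into S phase. They were chosen by symbol from a list of replication genes, and every row of the deposited table with such a symbol was kept. The list was made with earlier results of these data known, so its shares beside those of all features are a description and not a test. That gave 45 listings, since Gins2 and Rfc5 each stand on 2 rows, out of 13843 rows with 13556 symbols in all. The cells were neonatal rat ventricular myocytes (NRVM), heart muscle cells cultured from newborn rats. RNA sequencing was done on 6 libraries in 3 groups of 2, and no label ties the libraries of a group to different cultures. The p-values therefore measure only the spread between these libraries, which may be technical. All cells received phenylephrine (PE), an α1-adrenergic agonist used to make cultured myocytes hypertrophic, and all carried a short hairpin RNA vector, for 3 days. The PE group had PE with a control hairpin. The PE+TSA group had PE, TSA and the control hairpin, and TSA, not spelled out in the labels, commonly stands for trichostatin A, a histone deacetylase inhibitor. The PE+TSA+shJIP1 group had PE, TSA and a hairpin against JIP1, the JNK-interacting scaffold protein encoded by Mapk8ip1. No group lacked PE, and the hairpin was not tested without TSA. The series title and the genotype label speak of a JIP1 knockout where the treatment names a hairpin, and the hairpin wording is used here.

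DNA replication starts from origins that are bound by the origin recognition complex and loaded, by Cdc6 and Cdt1, with the ring-shaped MCM2-7 helicase. In S phase the helicase is switched on by Cdc45 and the GINS complex, polymerase α with its primase lays primers, and polymerases δ and ε copy the strands on the sliding clamp PCNA. Many of these genes are transcribed at the border of G1 and S phase by E2F factors, whose activity is held back by the retinoblastoma protein. Heart muscle cells stop dividing soon after birth, and cultures from newborn hearts also hold dividing non-muscle cells.

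The promoters are shown because E2F sites are the best known feature shared by these genes. RefSeq promoters (build GRCr8) were available for 36 of the 43 genes, and the 250 bases before the gene start were searched on both strands for the E2F words TTTCCCGC, TTTGGCGC, TTTCGCGC and TTTGCCGC. Such a word stood in 8 of the 36 promoters (22.2%), against 268 of 7996 promoters of tested features (3.35%) and 580 of 33469 promoters in the table (1.73%). In the stretches that follow, written 5′ to 3′ on the gene's strand, capitals mark the E2F words, which are read on the opposite strand where they begin with GCG. Where 2 words overlap, as in Mcm2, Mcm5, Mcm6 and Gins1, the capitals cover both.
Mcm2: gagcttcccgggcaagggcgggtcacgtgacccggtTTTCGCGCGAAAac
Mcm5: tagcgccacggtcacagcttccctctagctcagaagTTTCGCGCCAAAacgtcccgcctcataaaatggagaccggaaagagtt
Mcm6: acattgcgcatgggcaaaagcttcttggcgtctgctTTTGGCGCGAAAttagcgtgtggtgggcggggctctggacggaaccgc
Mcm7: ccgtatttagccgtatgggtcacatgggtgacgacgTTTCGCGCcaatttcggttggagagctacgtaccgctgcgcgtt
Gins1: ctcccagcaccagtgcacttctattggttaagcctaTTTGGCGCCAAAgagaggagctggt
Pola1: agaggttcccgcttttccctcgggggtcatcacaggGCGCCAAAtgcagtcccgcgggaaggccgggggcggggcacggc
Pole4: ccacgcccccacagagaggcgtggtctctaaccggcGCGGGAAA
Tyms: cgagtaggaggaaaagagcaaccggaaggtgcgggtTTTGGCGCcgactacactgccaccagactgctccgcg

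The stretches lie just upstream of the gene starts. They are Mcm2 at chr4:122918095-122918144 (minus strand), Mcm5 at chr19:13488564-13488647 (plus strand), Mcm6 at chr13:42404444-42404527 (minus strand) and Mcm7 at chr12:22163187-22163266 (minus strand). The others are Gins1 at chr3:160184859-160184919 (plus strand), Pola1 at chrX:62342484-62342563 (minus strand), Pole4 at chr4:116728852-116728895 (minus strand) and Tyms at chr9:120776084-120776156 (minus strand). Mcm5 and Mcm7 each held a further word in the same window, which for Mcm5 adjoined the gene start (-8 to -1). Of the MCM2-7 genes, Mcm3 had no such word in this window and Mcm4 had no entry. The CCAAT box, read as CCAAT on either strand, stood in 19 of the 36 promoters (52.8%), against 35.3% for tested features and 34.0% of the table. Pcna and Rpa2, to which several of the results refer, had a CCAAT box and no E2F word, with the box in capitals on the opposite strand.
Pcna: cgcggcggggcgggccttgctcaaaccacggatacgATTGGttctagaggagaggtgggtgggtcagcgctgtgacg
Rpa2: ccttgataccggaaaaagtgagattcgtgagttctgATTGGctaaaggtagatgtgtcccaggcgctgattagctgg

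The Pcna stretch is chr3:139955948-139956024 (minus strand) and the Rpa2 stretch is chr5:150260641-150260717 (plus strand). The word TTTGAA, the core of the cell cycle homology region of late cell cycle genes, stood in 2 of the 36 promoters (5.56%), against 11 of 25 promoters (44.0%) of a list of mitosis genes and 9.65% for tested features. A match describes the letters only, and binding was not measured.

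Levels are given in FPKM, fragments per kilobase of transcript scaled to the mapped fragments of the library, as deposited. Tests used log2(FPKM + 1) in limma on the 10359 features whose mean over the libraries reached 1 FPKM, with p-values adjusted over all of them and a threshold of 0.05, and log2 changes on this scale understate those of low genes. Of the 45 listings, 43 entered the tests. Orc1, a subunit of the origin recognition complex, and the first of the 2 Gins2 listings were too low, at 0.447 to 1.79 FPKM and 0.116 to 2.41 FPKM over the 6 libraries. The depth of the libraries, read from the steps between low values, was alike in 5 of them, at 0.720 to 1.34 times that of PE replicate 1. PE replicate 2 was 20.8 times shallower than PE replicate 1. A single read there was worth a median of 0.841 FPKM over 145 low features, with a range of 0.120 to 6.09 FPKM, and Cdc45 and Prim2 were listed at 0 in it. Low values in that library therefore carry a large counting error, and absolute depth is unknown.

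The hairpin's target was checked first. Mapk8ip1 stood at 3.77 and 4.39 FPKM with PE, at 14.6 and 17.9 FPKM with PE+TSA, and at 1.80 and 3.65 FPKM with PE+TSA+shJIP1. The PE+TSA libraries were the high ones. The hairpin libraries lay below both PE+TSA libraries without overlap, a log2 difference of -2.25 ± 0.34 (SE, n = 2 a group, limma adjusted p = 0.077). Against PE alone the difference was -0.49 ± 0.34 (limma adjusted p = 0.369), with hairpin replicate 2 close under the lower PE library and hairpin replicate 1 further down.

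**Figure D1:**
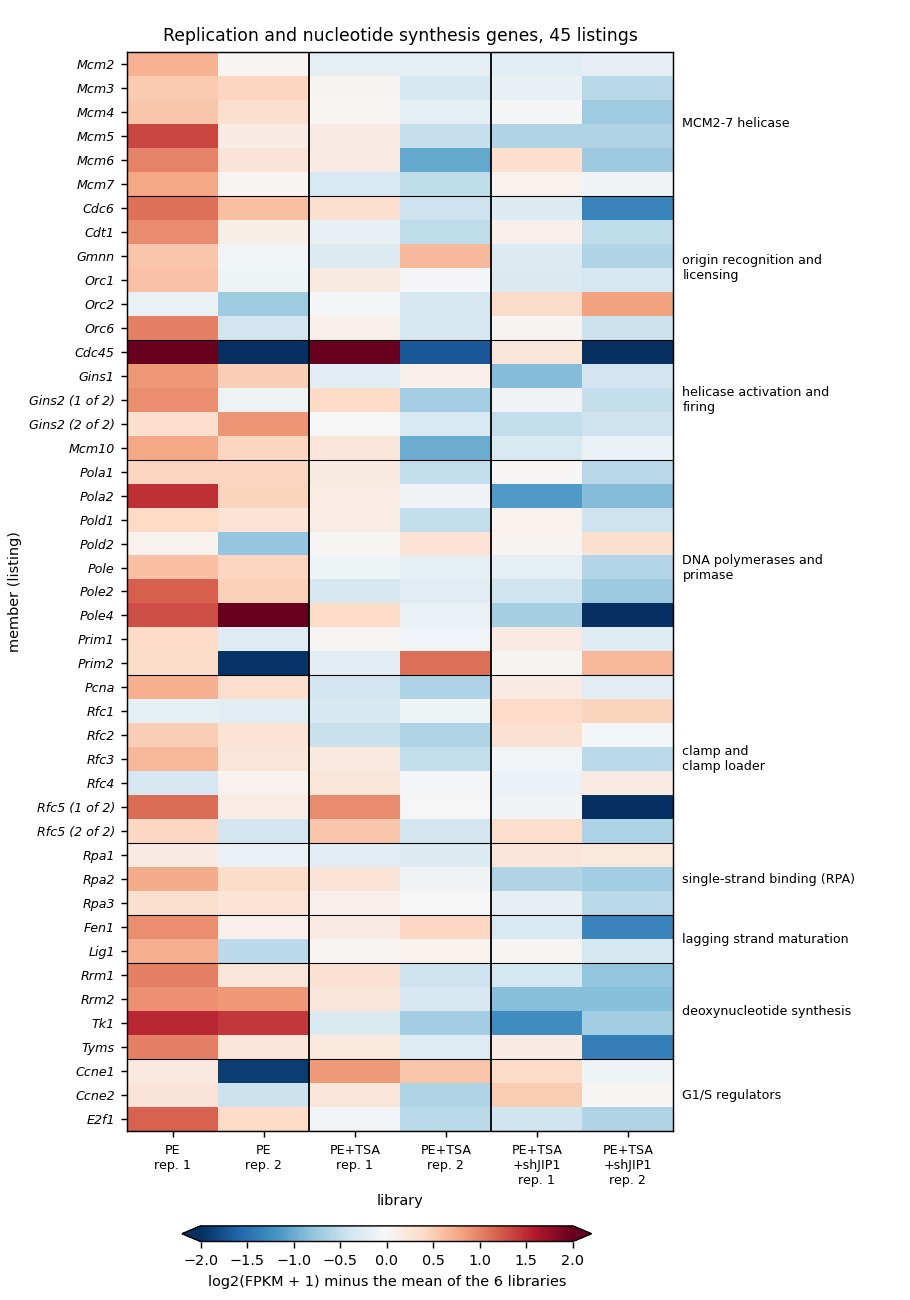
Level of each of the 45 listings in each of the 6 libraries, as log2(FPKM + 1) minus the listing's mean over the libraries, with listings in rows by role, libraries in columns by group, red for higher and blue for lower (colours end at 2 and -2). PE replicate 1 was high for most listings, and the 4 libraries with TSA were mostly lower.

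TSA was compared with PE alone in the presence of the control hairpin. Most replication genes were lower with TSA, but no single gene passed the threshold. Of the 43 listings tested, 35 were lower and 8 higher, with a median log2 difference of -0.58, while 42.9% of all features were lower and their median was 0.10. Both TSA libraries lay below both PE libraries for 26 of the 43 (60.5%), against 21.1% of all features. Among the 26, Gins1, Mcm10, Pole2, Rrm2 and E2f1 reached a mean of 1 FPKM only through the PE group, so they add no support. In limma 0 of 43 fell and 0 rose, where 0.183% of all features fell and 0.627% rose, and at an unadjusted p under 0.05 there were 7 of 43 (16.3%), all lower, against 7.1% of all features lower at that level. In bulk RNA, fewer cells of a replicating type and less of these RNAs per cell cannot be told apart. Leaving out PE replicate 1 gave a median of -0.30, leaving out PE+TSA replicate 2 gave -0.36, and it was -0.71 without the shallow PE replicate 2.

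All 6 subunits of the MCM2-7 helicase were lower with TSA, with a median log2 difference of -0.72. Mcm7 had 19.8 and 11.5 FPKM with PE and 8.77 and 7.49 FPKM with TSA, without overlap (-0.82 ± 0.31, limma adjusted p = 0.233). Mcm3, the subunit with the highest level, had 39.0 and 36.6 FPKM with PE and 27.9 and 21.3 FPKM with TSA. Mcm4 had 18.5 and 15.6 FPKM against 12.7 and 10.6 FPKM. These groups did not overlap, and the same held for Mcm2 (13.3 and 8.01 against 6.74 and 6.78 FPKM) and Mcm6 (20.9 and 12.3 against 11.3 and 4.43 FPKM). Mcm5 was the exception, since PE replicate 2 at 7.17 FPKM lay just under PE+TSA replicate 1 at 7.19 FPKM. The subunits of 1 ring were unequal in level: in the PE group the highest mean, of Mcm3, was 3.55 times the lowest, of Mcm2, and with PE+TSA and the JIP1 hairpin it was 5.52 times the lowest, of Mcm5.

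Among the genes that load the helicase, Cdc6 had 6.51 and 4.30 FPKM with PE against 3.37 and 1.63 FPKM with TSA, and Cdt1, the other loading factor, had 9.96 and 5.16 FPKM against 4.11 and 2.999 FPKM. Neither gene overlapped between the groups. Gmnn, which encodes the Cdt1 inhibitor geminin, was split, at 14.9 and 9.38 FPKM with PE and 7.92 and 16.0 FPKM with TSA. Orc6, a subunit of the origin recognition complex, also overlapped, at 5.30 and 1.41 against 2.39 and 1.47 FPKM. Orc2, of the same complex, was not lower, at 8.63 and 5.42 against 9.28 and 7.45 FPKM.

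Of the factors that switch the helicase on, Gins1 had 3.07 and 2.13 FPKM with PE and 0.917 and 1.38 FPKM with TSA. The second Gins2 listing, of another GINS subunit, had 20.9 and 31.1 FPKM against 16.3 and 13.1 FPKM (-0.76 ± 0.27, limma adjusted p = 0.213). Mcm10, which helps Cdc45 to bind, was at 2.63 and 1.87 against 1.51 and 0.0658 FPKM. All 3 were without overlap. No source used here says how reads were shared between the 2 listings of a gene, and the levels of Gins2 and Rfc5 are uncertain for that reason.

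Of 9 polymerase and primase genes, 7 were lower with TSA and 6 of these did not overlap. Pole4, an accessory subunit of polymerase ε, had 77.5 and 131 FPKM with PE and 40.9 and 28.2 FPKM with TSA. Pole2, its second subunit, had 4.62 and 2.42 against 0.969 and 1.12 FPKM (-1.10 ± 0.43, limma adjusted p = 0.244). Pole2 reached a mean of 1 FPKM only through the PE group, so its p-value is no support for a fall. The catalytic subunit Pole was at 5.83 and 5.07 against 3.22 and 2.97 FPKM, so the 3 ε subunits listed were all lower without overlap. The polymerase α subunits Pola1 (4.58 and 4.58 against 3.71 and 1.94 FPKM) and Pola2 (26.5 and 12.7 against 10.1 and 8.58 FPKM) did not overlap either. Pold1, the catalytic subunit of polymerase δ, was at 1.92 and 1.68 against 1.47 and 0.584 FPKM, while its partner Pold2 was at 20.6 and 11.0 FPKM with PE and 19.8 and 24.1 FPKM with TSA. The primase subunit Prim1 overlapped, at 40.5 and 25.6 against 31.3 and 29.5 FPKM, and Prim2, listed at 0 in PE replicate 2, had 4.01 FPKM in the other PE library and 2.34 and 7.31 FPKM with TSA.

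The clamp and its loader divided. Pcna, the sliding clamp, had 26.0 and 20.1 FPKM with PE and 11.7 and 9.83 FPKM with TSA, without overlap (-1.03 ± 0.26, limma adjusted p = 0.135). Rfc2, a small subunit of the clamp loader, had 7.88 and 6.61 against 3.65 and 3.16 FPKM (-0.90 ± 0.29, limma adjusted p = 0.183). Rfc3 did not overlap either, at 9.39 and 6.74 against 6.47 and 3.65 FPKM. The large subunit Rfc1 overlapped, at 15.8 and 15.5 against 14.4 and 17.1 FPKM, as did Rfc4, at 5.80 and 7.99 against 9.14 and 7.32 FPKM. Both Rfc5 listings had replicate 1 at about the same height in the PE and PE+TSA groups, with 23.8 and 11.7 against 20.9 and 10.4 FPKM for the first and 7.24 and 3.79 against 8.05 and 3.80 FPKM for the second.

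The 3 subunits of RPA, which coats single-stranded DNA, were lower with TSA without overlap, by small amounts (median log2 difference -0.25). Rpa2 had 21.1 and 15.9 FPKM with PE against 14.7 and 11.6 FPKM, Rpa1 had 38.2 and 30.9 against 29.5 and 28.2 FPKM, and Rpa3 had 13.0 and 12.7 against 11.1 and 10.4 FPKM. Fen1, the flap nuclease, and Lig1, the ligase that seals lagging strand fragments, both overlapped, at 33.7 and 18.6 against 19.4 and 23.4 FPKM and at 18.9 and 7.37 against 11.3 and 11.6 FPKM.

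The largest log2 difference among the 43 listings with TSA was that of a deoxynucleotide enzyme. Tk1, the S-phase thymidine kinase of the salvage pathway, had 14.5 and 13.6 FPKM with PE and 3.48 and 2.37 FPKM with TSA (-1.95 ± 0.34, limma adjusted p = 0.0731). The 2 groups were far apart, but the gene missed the threshold. Rrm1, the large subunit of ribonucleotide reductase, overlapped, at 73.3 and 42.4 against 44.3 and 26.5 FPKM, whereas the small subunit Rrm2 was at 2.39 and 2.26 against 1.14 and 0.424 FPKM. Thymidylate synthase, Tyms, had 113 and 65.9 FPKM with PE and 65.1 and 46.7 FPKM with TSA, again without overlap.

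The G1/S regulators did not share a direction. E2f1, an E2F activator, had 4.41 and 2.15 FPKM with PE and 1.29 and 0.646 FPKM with TSA. Ccne1, cyclin E1, had 11.9 and 2.03 FPKM with PE and 19.5 and 15.7 FPKM with TSA, and it was the 1 listing of 43 (2.33%) with both TSA libraries above both PE libraries, against 29.5% of all features. Without PE replicate 1, Ccne1 was the 1 listing that passed the threshold, with a log2 rise of 2.61 that rests on the shallow PE replicate 2 alone. Ccne2, cyclin E2, had 12.6 and 7.44 against 12.4 and 6.54 FPKM, with the groups overlapping.

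**Figure D2:**
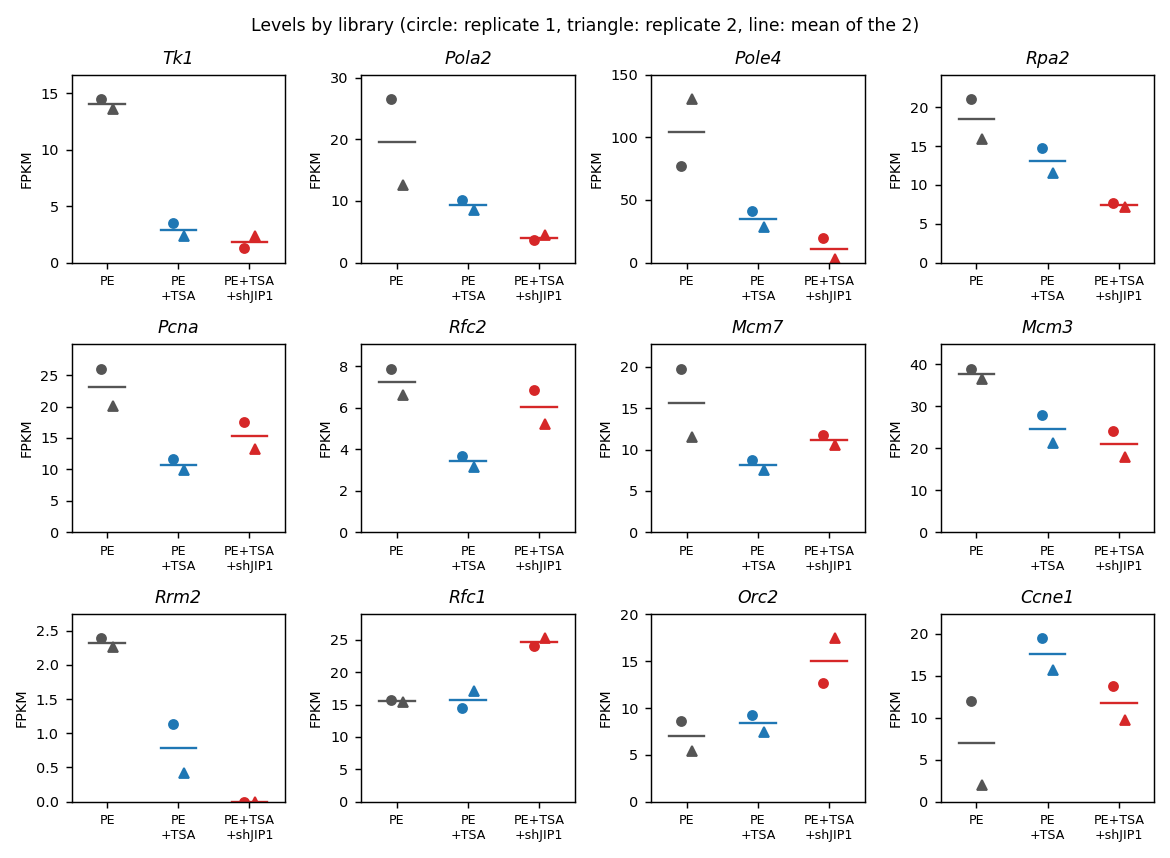
FPKM on linear axes that start at 0 for 12 genes in the 3 groups, with a circle for replicate 1, a triangle for replicate 2 and a line at their mean. Tk1 stood at 13.6 FPKM or more in both PE libraries and at 3.48 FPKM or less in all 4 libraries with TSA, while Pcna and Rfc2 were lowest in the PE+TSA group. Rrm2, listed at 0 with the hairpin, is drawn at the foot of its panel.

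The JIP1 hairpin was compared with the control hairpin in cells with PE and TSA. The replication genes stood on both sides of their PE+TSA levels, with more of them lower, and no single gene passed the threshold. Of the 43 listings, 31 were lower (72.1%) and 12 higher, with a median log2 difference of -0.22, while 50.2% of all features were lower. Both hairpin libraries lay below both PE+TSA libraries for 14 listings (32.6%, against 25.1% of all features) and above them for 6 (14.0%, against 24.9%). The share lower without overlap was thus near that of all features. In limma 0 of 43 fell and 0 rose, where 0.106% of all features fell and 0.183% rose, and 6 of 43 had an unadjusted p under 0.05, 4 of them lower (9.3%, against 8.94% of all features). The median was -0.11 without PE+TSA replicate 1, -0.41 without PE+TSA replicate 2, -0.39 without hairpin replicate 1 and -0.05 without hairpin replicate 2. Without PE+TSA replicate 2 the listings lower without overlap numbered 30 of 44 tested, and without hairpin replicate 1 they numbered 28 of 43. With 1 library against 2, groups separate more easily. The share of all features was not computed there, so these counts cannot be set beside the 25.1%.

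Of the 14 listings lower without overlap, Pola2, Pole4, Rpa2 and Fen1 were among the 6 with the smallest p. Pola2 had 3.59 and 4.52 FPKM with the hairpin, below its PE+TSA libraries without overlap (-1.03 ± 0.38, limma adjusted p = 0.285). Pole4 had 19.3 and 3.19 FPKM (-1.92 ± 0.72, limma adjusted p = 0.293), and its 2 hairpin libraries differed more from each other than the group means did. Rpa2 had 7.70 and 7.15 FPKM (-0.74 ± 0.26, limma adjusted p = 0.267). Rpa3 was also below its PE+TSA values, at 9.03 and 6.79 FPKM, whereas the largest subunit Rpa1 was above them, at 40.6 and 39.6 FPKM. So the members of the 3-part RPA complex stood on both sides of their PE+TSA levels. Fen1 had 13.8 and 6.33 FPKM (-1.10 ± 0.43, limma adjusted p = 0.310), and Lig1, at 11.2 and 8.41 FPKM, lay just under its PE+TSA libraries. Pole had 2.96 and 1.98 FPKM and Pole2 had 0.874 and 0.484 FPKM, both lower without overlap by small margins, while the polymerase δ subunit Pold2 overlapped, at 20.3 and 24.5 FPKM.

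There were 6 listings above their PE+TSA values in both hairpin libraries, namely Rpa1, Mcm7, Pcna, Rfc2, Rfc1 and Orc2. Pcna had 17.5 and 13.2 FPKM, Rfc2 had 6.83 and 5.21 FPKM and Mcm7 had 11.8 and 10.5 FPKM. For these genes, which were lower with TSA, the hairpin libraries stood between the PE+TSA and the PE levels or, for Rfc2 and Mcm7, reached into the PE range. Rfc1, not lower with TSA, had 24.0 and 25.3 FPKM (0.62 ± 0.21, limma adjusted p = 0.254). Orc2 had 12.7 and 17.5 FPKM (0.77 ± 0.32, limma adjusted p = 0.333). None of the 6 passed the threshold.

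The rest of the helicase and nucleotide genes showed no such separation, with exceptions. Mcm5 had 3.80 and 3.81 FPKM with the hairpin, under its PE+TSA libraries, while Mcm2 (6.46 and 6.84 FPKM), Mcm3 (24.0 and 18.0 FPKM), Mcm4 (12.1 and 7.12 FPKM) and Mcm6 (13.0 and 5.70 FPKM) overlapped with theirs. Tk1 had 1.31 and 2.39 FPKM, with the higher value just above the lower PE+TSA library. Rrm2 was listed at 0 in both hairpin libraries, so no fold is given, and Gins1, at 0.227 and 0.711 FPKM, was also under its PE+TSA values. So was the second Gins2 listing, at 11.3 and 12.0 FPKM. Outside these roles, the first Rfc5 listing (9.90 and 1.60 FPKM) and Ccne1 (13.8 and 9.69 FPKM) also lay below both of their PE+TSA libraries. Tyms (63.0 and 21.0 FPKM), Rrm1 (27.9 and 20.4 FPKM), Cdc6 (1.91 and 0.383 FPKM) and E2f1 (0.802 and 0.575 FPKM) overlapped.

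TSA with the JIP1 hairpin was then compared with PE alone; this comparison shares its libraries with the other 2 and differs from PE in both agents. Here 4 replication genes fell: Tk1, Pola2, Pole4 and Rpa2. They were 4 of 43 listings (9.3%), where 4.16% of all features fell, and 0 of 43 rose, where 4.11% of all features rose. Of the 43, 35 were lower, with a median log2 difference of -0.75, against 0.10 for all features, of which 44.4% were lower. Both hairpin libraries lay below both PE libraries for 27 listings (62.8%), against 26.7% of all features, and at an unadjusted p under 0.05 17 listings were lower (39.5%), against 13.6% of all features. The median was -0.50 without PE replicate 1 and -0.46 without hairpin replicate 2.

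Tk1 fell by 2.43 ± 0.34 on the log2 scale (limma adjusted p = 0.0184). Its hairpin libraries, at 1.31 and 2.39 FPKM, were far under the PE libraries at 14.5 and 13.6 FPKM, which differed little from each other. Pola2, the accessory subunit of polymerase α, fell by 1.95 ± 0.38 (adjusted p = 0.0357), with PE libraries at 26.5 and 12.7 FPKM and hairpin libraries at 3.59 and 4.52 FPKM. Pole4 fell by 3.46 ± 0.72 (adjusted p = 0.0401), from 77.5 and 131 FPKM to 19.3 and 3.19 FPKM, the largest fall on the log2 scale among the 4 and the one with the widest spread. Rpa2 fell by 1.20 ± 0.26 (adjusted p = 0.0443), from 21.1 and 15.9 FPKM to 7.70 and 7.15 FPKM. These 4 calls depended on the libraries used and, but for Tk1, on the filter and the groups in the fit: with no filter on low values Pola2, Pole4 and Rpa2 had limma adjusted p-values of 0.0561, 0.0610 and 0.0622, and with only the 2 groups compared 0.0663, 0.0687 and 0.0751. Over all 13 alternatives these adjusted p-values ranged from 0.0248 to 0.158 for Pola2, from 0.0362 to 0.151 for Pole4 and from 0.0299 to 0.204 for Rpa2. The count was 0 if any of PE replicate 2, PE+TSA replicate 2 or the 2 hairpin libraries was left out, and 1 (Tk1) without PE+TSA replicate 1. Without PE replicate 1 it was 3, of which Tk1 and the second Gins2 listing fell and Ccne1 rose (log2 change 2.06).

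The next listings missed the threshold. The second Gins2 listing had 11.3 and 12.0 FPKM with the hairpin against 20.9 and 31.1 FPKM with PE (-1.07 ± 0.27, limma adjusted p = 0.0605). Rrm2, listed at 0 with the hairpin and at 2.39 and 2.26 FPKM with PE, had a limma p of 0.00709 and an adjusted p of 0.0617. Its mean over the libraries was 1.03 FPKM, with group means of 2.32 (PE), 0.780 (PE+TSA) and 0 FPKM (hairpin). Rrm2 thus entered the test only through the PE group, 1 library of which was shallow, and its p-value is no support for a fall. Gins1, Mcm10, Pole2 and E2f1 likewise reached a mean of 1 FPKM only through the PE group. With only the PE+TSA and hairpin groups in the fit, 38 listings reached it. These genes and Rrm2 are counted above among the listings lower than PE without overlap, where they add no support. Orc2, Rpa1 and Rfc1 were the 3 listings (6.98%, against 33.9% of all features) whose hairpin libraries both lay above both PE libraries.

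**Figure D3:**
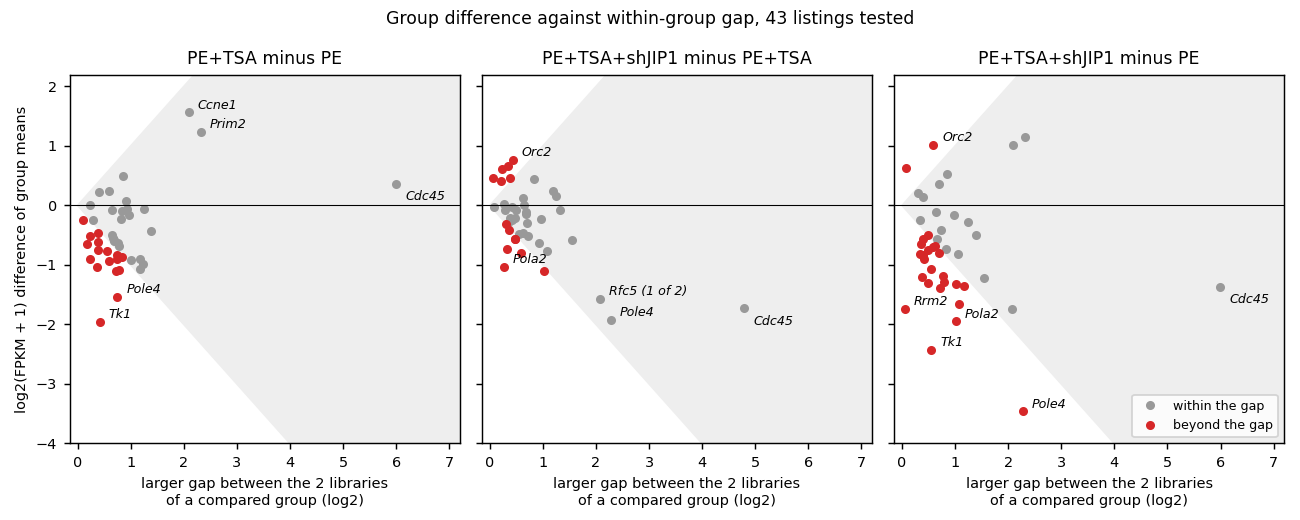
Log2 difference of group means of log2(FPKM + 1) against the larger of the 2 gaps between libraries of a compared group, for the 43 listings tested in the 3 comparisons. Red points lie outside the grey zone, where the group difference is larger than that gap, and the 17 of them in the first panel are all lower with TSA.

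The spread within groups was set against the differences between them. The group difference was larger than the gap between the 2 libraries of either group for 17 listings lower and 0 higher with TSA (39.5% and 0% of the 43), against 15% and 20.9% of all features. With the hairpin it was so for 8 lower and 6 higher (18.6% and 14.0%, against 19.3% and 18.5%), close to the share of all features. For both agents against PE it was so for 23 lower and 2 higher (53.5% and 4.65%, against 21.1% and 26%). The lower listings with TSA and with both agents include Gins1, Pole2, Rrm2 and E2f1, which reached a mean of 1 FPKM only through the PE group. The gaps had a direction. Replicate 1 was above replicate 2 for 39 of 43 listings in the PE group, for 34 of 43 with PE+TSA and for 30 of 43 with the hairpin. It was above in all 3 groups for 24 of 43 (55.8%), against 22.4% of all features, and no listing had replicate 2 above in all 3. The median log2 gap of the listings was 0.61, 0.30 and 0.37 in the 3 groups, against 0.16, 4.1e-05 and 0.0058 for all features, so in the PE group it was about as large as the median difference with TSA. The labels do not say that a replicate number marks a shared batch.

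Over the 6 libraries, the median of the 43 listings on the log2 scale was 3.95 and 3.17 with PE, 3.36 and 3.06 with PE+TSA, and 3.12 and 2.74 with the hairpin, while that of all features stayed between 3.51 and 3.71. PE replicate 1 was the high library. PE replicate 2 lay under PE+TSA replicate 1, so the medians of these groups overlapped even though most single genes did not.

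**Figure D4:**
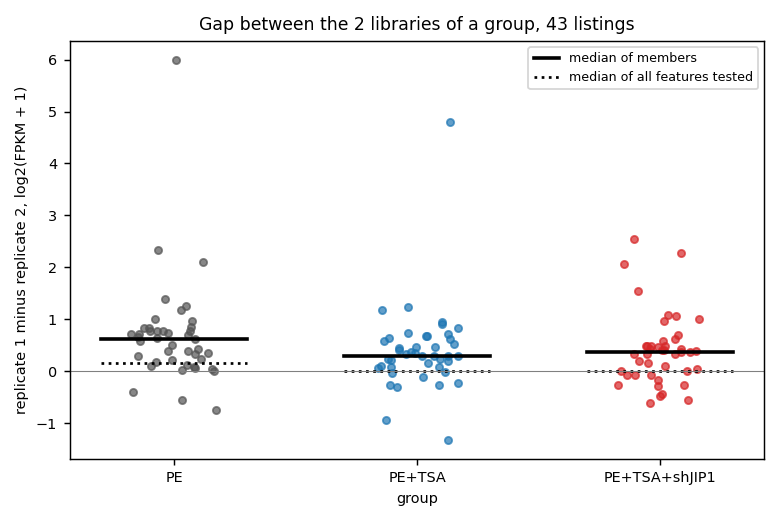
Log2 gap between replicate 1 and replicate 2 of each group for the listings tested, beside the median of all features. Most points lie above 0 in each group, with a median of 0.61 in the PE group, and the highest point in each group is Cdc45.

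Cdc45, the helicase activator, was the extreme case. It had 62.9 FPKM in PE replicate 1 and was listed at 0 in PE replicate 2, had 53.1 and 0.954 FPKM with PE+TSA, and had 6.47 and 0.283 FPKM with the hairpin. The gap between libraries of 1 group was thus far larger than any difference between groups. It was 1 of 4 features of 13843 (with Mir3074, Mirlet7d and Rassf5) in which replicate 1 had at least 5 FPKM and at least 20 times replicate 2 in all 3 groups, and 0 features had the reverse. No source used here gives the strand or the treatment of overlapping genes, and reads from a gene overlapping Cdc45 could not be separated from its own.

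Other replication genes, from a list of further origin, helicase, repair and chromatin assembly factors, showed a weaker tilt. Of 33 symbols 25 were in the table, and 23 listings were tested. With TSA 16 of the 23 were lower (median -0.34) and 0 passed; with the hairpin 9 were lower (median 0.08) and 0 passed; with both against PE 14 were lower (median -0.14), 1 fell and 1 rose. Asf1b, a histone chaperone that works at the fork, fell by 1.84 ± 0.34 (limma adjusted p = 0.0319), from 11.7 and 10.1 FPKM with PE to 2.36 and 2.28 FPKM with both agents, and PE+TSA had 5.27 and 2.81 FPKM. Orc4, of the origin recognition complex like Orc2, rose by 1.34 ± 0.22 (adjusted p = 0.026), from 11.6 and 9.70 FPKM to 31.3 and 25.8 FPKM. Pole3, the histone-fold partner of Pole4, had 14.2 and 10.2 FPKM with PE, 14.0 and 10.4 FPKM with TSA and 5.84 and 5.47 FPKM with the hairpin (hairpin against PE+TSA -0.97 ± 0.28, adjusted p = 0.205). Timeless, a fork protection factor, was at 4.95 and 5.26 FPKM with PE and at 2.03 and 2.23 FPKM with TSA (-0.96 ± 0.30, adjusted p = 0.179).

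Other genes of nucleotide synthesis did not tilt. Of 28 listings tested 14 were lower with TSA, 10 with the hairpin and 13 with both agents against PE, with medians of -0.00033, 0.11 and 0.09. Shmt2, the mitochondrial enzyme that makes one-carbon units from serine, fell with TSA by 1.77 ± 0.23 (limma adjusted p = 0.0386), from 66.4 and 65.6 FPKM to 18.6 and 18.7 FPKM. With the hairpin it had 15.5 and 10.7 FPKM, a fall of 2.27 ± 0.23 against PE (adjusted p = 0.0127). Prps1, which makes the ribose phosphate donor of purine and pyrimidine synthesis, rose by 1.16 ± 0.21 with both agents against PE (adjusted p = 0.03), from 21.3 and 25.3 FPKM to 51.6 and 54.9 FPKM. No gene of this list passed with the hairpin against PE+TSA.

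Genes of the E2F and retinoblastoma circuit, 15 of 19 symbols with 15 listings tested, were not far from all features in direction. In the 3 comparisons 5, 7 and 5 were lower (33.3%, 46.7% and 33.3%), against 42.9%, 50.2% and 44.4% of all features. Their medians were 0.28, 0.14 and 0.12. With TSA, and with the hairpin against PE+TSA, 0 passed. With both agents 1 fell and 1 rose (6.67% each), where 4.16% of all features fell and 4.11% rose. With both agents against PE, Cdk2, the kinase partner of the E cyclins, fell by 1.46 ± 0.30 (limma adjusted p = 0.0396), from 37.6 and 23.7 FPKM to 10.9 and 9.69 FPKM. Tfdp2, a dimer partner of the E2F factors, rose by 1.45 ± 0.33 (adjusted p = 0.049), from 2.34 and 1.67 FPKM to 5.89 and 8.67 FPKM. Rb1, the retinoblastoma gene, stood at 135 and 136 FPKM with PE and at 220 and 200 FPKM with TSA (0.63 ± 0.18, adjusted p = 0.158), and Cdkn1b, the Cdk2 inhibitor p27, at 28.5 and 19.2 against 40.1 and 45.6 FPKM (0.84 ± 0.25, adjusted p = 0.163).

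Mitosis genes, 27 of 30 symbols with 27 listings tested, were lower in more of their number. With TSA 25 of 27 were lower (median -1.28), with the hairpin 24 (median -0.58) and with both agents against PE all 27 (median -2.01), where 6 fell: Tpx2, Prc1, Cdc20, Top2a, Kif11 and Kif20a. Top2a, the topoisomerase of late S phase and mitosis, went from 31.6 and 11.1 FPKM with PE through 6.39 and 2.34 FPKM with TSA to 1.27 and 0.719 FPKM with the hairpin (both agents against PE -3.33 ± 0.59, limma adjusted p = 0.0289). Cdc20, which activates the anaphase-promoting ubiquitin ligase, went from 16.4 and 12.3 FPKM through 2.04 and 2.95 FPKM to 1.13 and 2.31 FPKM (-2.52 ± 0.37, adjusted p = 0.0194). With TSA, and with the hairpin against PE+TSA, 0 passed. The 2 listings higher with TSA were Cdk1 and the first Ect2 listing, which did not decline in steps. Cdk1 had 77.7 and 3.56 FPKM with PE, 183 and 296 FPKM with TSA and 3.41 and 0 FPKM with the hairpin. The first Ect2 listing had 50.7 and 0, then 49.9 and 44.4, then 0 and 0 FPKM. Replicate 1 was above replicate 2 in the PE group for all 27, and in all 3 groups for 12, as it was for most replication genes.

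**Figure D5:**
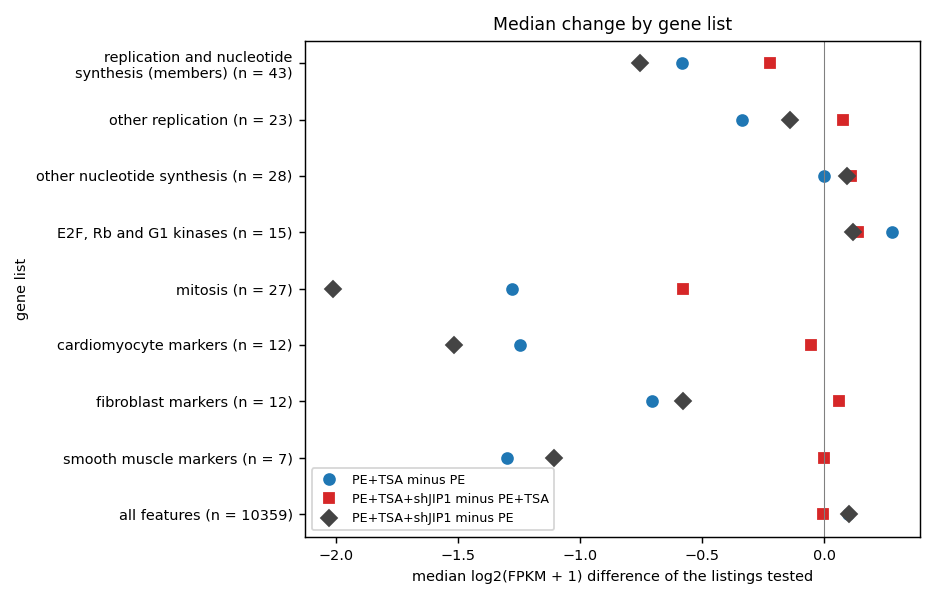
Median log2 difference of the listings tested in each gene list for the 3 comparisons, beside the median of all features, where the TSA point lies under that of both agents. Replication genes (-0.58, -0.22 and -0.75) lay between the mitosis genes (-1.28, -0.58 and -2.01) and the other nucleotide genes (-0.00033, 0.11 and 0.09).

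Markers of the cell types that such cultures can hold were measured beside these genes. Cardiomyocyte markers were high in every library, with none of 12 at 0, led by Tnnt2 and Actc1, which encode cardiac troponin T and cardiac actin. Their summed level was 29401 and 23828 FPKM with PE, 13424 and 6898 FPKM with PE+TSA, and 12403 and 6981 FPKM with the hairpin. All 12 were lower with TSA (median -1.25, 0 passed) and with both agents against PE (median -1.52, 3 fell, Myl3, Tnni3 and Pln), while 7 of 12 were lower with the hairpin against PE+TSA (median -0.05). Fibroblast markers, led by Fn1 and Col1a1, summed to 1387 to 2881 FPKM over the libraries. Of 12 tested 9 were lower with TSA (median -0.71, Thy1 rose), 3 with the hairpin (median 0.06, 0 passed), and with both agents Vim and Dcn fell and Thy1 rose (median -0.58). Col1a2 was at 0 in 5 libraries while Col1a1 was high, so a 0 in this table can be a failed estimate.

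Smooth muscle markers, led by Acta2 and Tagln, summed to 1670 and 1358 FPKM with PE and to 267 to 520 FPKM in the other 4 libraries. Acta2 fell with TSA (median of 7 markers -1.30), and Acta2, Cspg4 and Myh11 fell with both agents against PE (median -1.11), while with the hairpin against PE+TSA 0 passed (median 0.0018). Endothelial markers summed to 11.5 to 40.1 FPKM and macrophage markers to 9.62 to 18.5 FPKM. Their leading genes were Kdr and Egfl7 and, for macrophages, Cd68 and Cd14, and 0 of 5 and 0 of 4 tested passed in any comparison, with medians of 0.05, -0.53 and 0.24 and of -0.49, -0.13 and -0.36. Which cells carried the replication RNAs was not measured, and the part of these marker differences in the replication results was not tested.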

How the data were processed

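RNA sequencing values of 6 NRVM libraries were analysed. The authors deposited 1 table of values per gene whose header names no unit; FPKM was taken from Cufflinks, which is named with the build rn6 per the submitters' processing notes, without version or role. For the aligner, annotation and strand, nothing is given in the sources used here. Groups came from the sample labels. Features whose mean reached 1 FPKM were tested on log2(FPKM + 1) in R 4.3.3 by limma 3.58.1, using a mean-variance trend, all 6 libraries in 1 model (3 residual and 3.27 prior degrees of freedom), two-sided p-values and Benjamini-Hochberg adjustment over 10359 features. The method was tested on simulated data. Depth relative to PE replicate 1 came from the commonest ratio of low values, except for PE replicate 2. For that library, values under 8 FPKM were taken to be 1 read, set against 1 to 8 reads in PE replicate 1. The smallest step that held nearly as many features as the best one was used, so its depth rests on that assumption. Full statistics are given for members past the threshold, the 6 smallest p per comparison, the hairpin target, and in the 9 other lists mainly for genes past the threshold. The members and lists were chosen with earlier results of these data known. Alternatives were another pseudocount, other filters and scalings, a replicate block, fits of 2 groups, and leaving out each library. Promoters were read from RefSeq tables of GRCr8 by symbol, and no coordinate was joined to the values.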

Additional observations from a re-analysis of the deposited data

How the results depend on the processing

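The medians of the replication genes kept their direction in all 3 comparisons under all 13 alternatives, and none moved by more than the SD between replicates (0.38 on the log2 scale). That SD exceeds the hairpin median itself (-0.22), so staying within it does not show that median to be stable. The hairpin median was -0.05 without hairpin replicate 2. The TSA median went from -0.58 to -0.30 without PE replicate 1. The replicate block could not change any of the medians. Counts of calls moved far more. With no filter on low values, features past the threshold numbered 14 with TSA (84 as reported), 1 with the JIP1 hairpin (30 as reported) and, among the replication genes for both agents against PE, 2 (Rrm2 and Tk1, 4 as reported). With only the 2 groups compared in the fit, 7 features passed with TSA and 372 with both agents (857 as reported), and 1 replication gene (Tk1). With the replicate number as a block, 28 features passed with TSA, 18 with the hairpin and 1063 with both agents, and 7 replication listings passed with both agents (the 4 named plus Cdc6, the first Rfc5 listing and Rrm1). The deviations of same-numbered libraries correlated at 0.07 (PE and PE+TSA), 0.04 (PE and hairpin) and 0.12 (PE+TSA and hairpin) over 10359 features, and no pairing is claimed. Correlations over all features, with 1 shallow library, cannot show whether same-numbered libraries shared a batch. For 24 of the 43 replication listings (55.8%, against 22.4% of all features) replicate 1 was above replicate 2 in all 3 groups. A shared batch was not tested. Leaving out each library gave 6 to 250 features with TSA, 8 to 19 with the hairpin and 18 to 984 with both agents. It gave 0 to 1 replication listings past the threshold with TSA and 0 to 3 with both agents, and 16 to 30 replication listings lower without overlap with the hairpin (14 as reported). With 1 library left in a group, libraries separate more easily, so the 16 to 30 listings are not comparable with the 14 as reported. With a filter of 5 FPKM, 17 listings were lower without overlap with TSA (26 as reported), and fewer listings were tested. The cause of the other moves was not tested. The median of all features with TSA moved from 0.10 to 0.01 with trimmed-mean scaling and to -0.01 with quantile normalization, and 37 of 43 replication listings were lower under each. Of 269 values of 21 named results, 239 kept their side of the threshold, 28 lost it, 2 gained it (Gins2 without PE replicate 1 and Rrm2 with no filter) and 0 reversed. Pola2, Pole4 and Rpa2 each lost it in 8 of 13 alternatives and Tk1 in 4. The 28 losses were all of these 4 results, the only named ones that passed as reported. Most of the 239 values belong to results that missed the threshold as reported and went on missing it, so they do not show calls to be stable. Each group had 2 libraries, and 1 of the PE libraries was shallow, which limits the precision. Known changes were put into the simulated data to check the method, but the smallest difference that could be found was not determined.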
